A study of Mus musculus with 8 samples.

Results

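The insulin-like growth factor (IGF) system of brain endothelial cells (ECs) was followed through 10 genes, the ligands *Igf1* and *Igf2*, the receptors *Igf1r* and *Igf2r*, and the binding proteins *Igfbp2* to *Igfbp7*. They were taken by name from the 49315 genes with counts, with earlier results of these data known. RNA came from CD31-selected brain cells of 4 mutant and 4 wild-type mouse pups at P9, with 1 library per pup. Mutant pups carried R26GT-Map2k1-GFP/+ together with Tg-Cdh5CreER+/-, so that tamoxifen at P1 switched on a *Map2k1* K57N cDNA, an active form of the kinase MAP2K1 (MEK1) that phosphorylates ERK, in cells in which the *Cdh5* promoter drives CreER. Pups of both groups received tamoxifen, the controls were drawn from the same litters as the mutants, and the lines were kept on C57BL/6J. The paper reports that mutant pups at P9 were growth retarded, with malformed vessels and hemorrhage in the brain, while all pups appeared healthy. The part of this difference in body state in the values below was not tested. The labels call the controls wild type, while supplementary material of the study also gives them as Tg:Cdh5-CreER, so whether they carried the CreER transgene is not settled here. The cDNA is driven by a CAG promoter from the *Rosa* locus and is recombined in only a part of the ECs, so each mutant library averages recombined and other ECs, and no pup expressed a normal *Map2k1* cDNA from that locus.

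IGF1 and IGF2 are secreted growth factors that act on IGF1R, a receptor tyrosine kinase upstream of the PI3K and RAS pathways. IGF2R carries mannose 6-phosphate bearing proteins to lysosomes and clears IGF2 without signalling like IGF1R. The binding proteins hold IGFs outside the cell and can limit or prolong their action, and several of them are made by vessel walls. IGFBP7 binds IGFs weakly and is abundant in blood vessels.

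*Igfbp3* and *Igfbp5*, which encode carriers of circulating and matrix-bound IGFs, rose 15.1-fold and 11.1-fold in mutant ECs, and *Igf1* rose 4.65-fold from a low level. Values given for ECs here are those of all CD31-selected cells of a library, and the part of other cell types in them was not tested. *Igf2r* and *Igfbp4* rose less, by 1.52-fold and 1.34-fold. *Igf1r* fell to 56.5% and *Igfbp2* to 40.0% of wild type, while *Igf2*, *Igfbp6* and *Igfbp7* did not pass the test. A gene passed at a Benjamini-Hochberg adjusted p under 0.05 in the quasi-likelihood test of edgeR over the 16887 genes tested. All 10 genes cleared the filter on low counts, and 7 of 10 passed, 5 upward and 2 downward. Over all genes tested, 44.4% passed, 21.5% upward and 22.9% downward, so a pass was common in this comparison. An absolute log2 fold change over 1 was also reached by 4 of the 10, against 14.0% of all genes tested. These were *Igf1*, *Igfbp3* and *Igfbp5* upward (5.90% of all genes) and *Igfbp2* downward (8.05% of all genes). The groups stood apart with no shared range for 6 of the 10 genes, against 42.5% of all genes. Mutant libraries were the higher for 5 of them (20.6% of all genes) and the lower for *Igf1r* (21.9% of all genes). The median log2 fold change of the 10 was 0.28 and their median absolute value 0.72, compared with -0.02 and 0.37 over all genes.

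**Figure D1:**
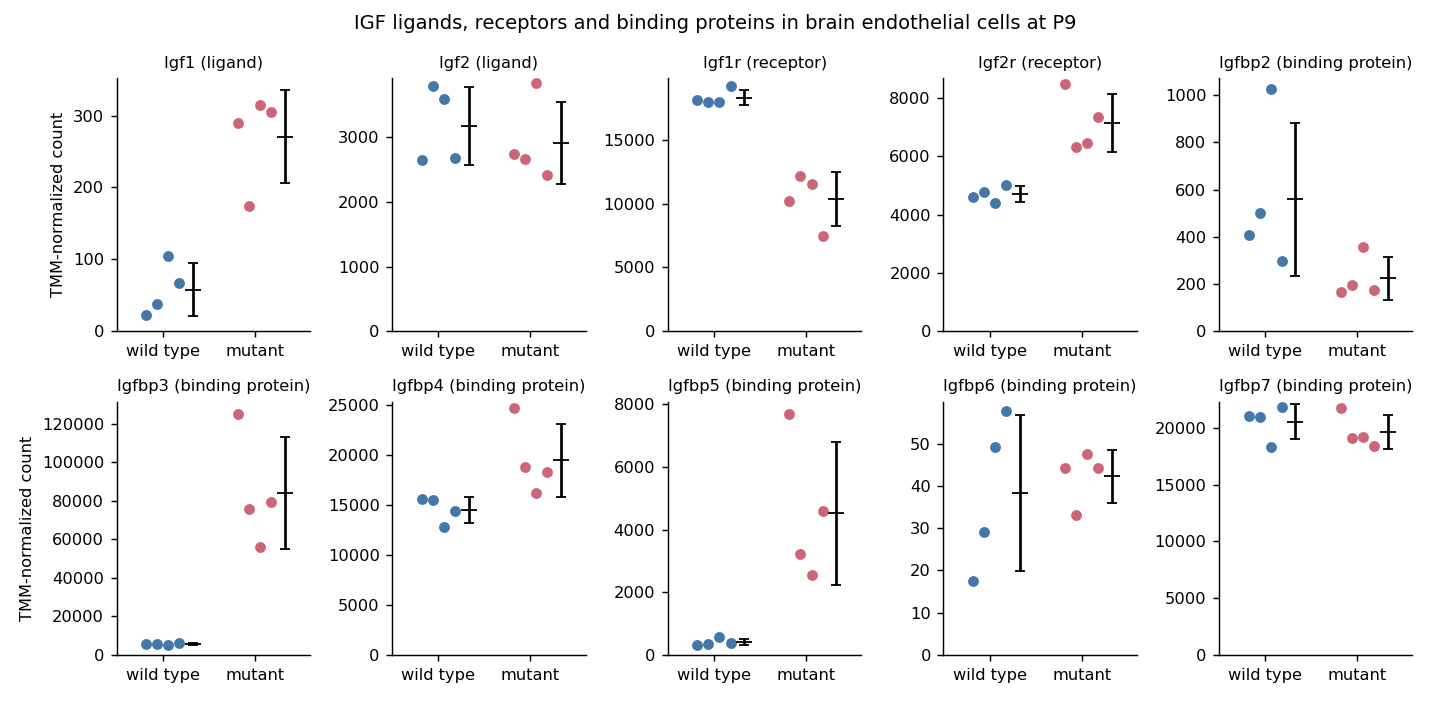
TMM-normalized counts of the 10 IGF genes, with a point for each library and the mean ± SD of each group (n = 4) as a black bar, on linear axes from 0. Mutant points lie above all wild-type points for *Igf1*, *Igf2r*, *Igfbp3*, *Igfbp4* and *Igfbp5* and below them for *Igf1r*.

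Libraries held 24833373 to 34196955 counts on genes. *Map2k1*, whose cDNA adds to its own count, lay between 12660 and 18687 normalized counts in mutant and between 1502 and 1758 in wild-type libraries, as their labels say. The 10 endothelial markers summed to between 359547 and 454665 normalized counts per library, with 3 of them higher, 4 lower and 3 that did not pass. Signs of other cells moved with the groups in part. All 8 oligodendrocyte lineage markers, all 7 red blood cell markers and 6 of 9 neuron markers tested were lower in mutant libraries. None of 10 microglia and none of 6 border macrophage markers passed, with median log2 fold changes of -0.11 and 0.80. In such bulk RNA, fewer cells of a type and less RNA per cell cannot be told apart. Single gene values below are counts scaled by TMM, edgeR's library size correction, to the mean library size, and levels are compared between genes only as RPKM, which divides by the exon length of the gene.

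*Igf1* (ENSMUSG00000020053) lies on chromosome 10 of GRCm38 from 87858265 to 87937042. The mutant libraries 1 to 4 had 289, 174, 315 and 305 normalized counts, and the wild-type libraries 22.1, 37.5, 105 and 67.3. The lowest mutant library was 1.66 times the highest wild-type library, so the groups stood apart although *Igf1* was the scarcest of the 10 transcripts per length in both groups. Its means were 271 ± 65.2 (SD, n = 4) and 58.0 ± 36.6 (SD, n = 4), a log2 fold change of 2.22 ± 0.40 (SE, the standard error, adjusted p = 0.00137 from edgeR). These values rest on 24 to 351 reads per library.

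Microglia and macrophages are known sources of IGF1 in brain, so their markers are given beside *Igf1*. Summed over 10 microglia markers, mutant libraries held 4849, 6306, 18660 and 14433 normalized counts and wild-type libraries 6330, 8484, 20314 and 5420. The 6 border macrophage markers summed to 714, 809, 1806 and 1811 in mutant libraries 1 to 4 and to 258, 337, 1739 and 855 in wild-type libraries 1 to 4. Within the wild-type group, *Igf1* had the same order of libraries as the border macrophage sum, and library 3 was highest for *Igf1* and both sums. Within the mutant group, libraries 3 and 4 were highest for *Igf1* and both sums, and library 1, with the lowest sums, had 289 counts of *Igf1*. No marker of either list was at 0 in every library, and the part of these cells in the *Igf1* value was not tested.

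*Igf2* (ENSMUSG00000048583), on the minus strand of chromosome 7 from 142650766 to 142666816, is the more abundant ligand. Mutant libraries had 2736, 2658, 3833 and 2418 normalized counts and wild-type libraries 2645, 3798, 3593 and 2678, so the ranges overlapped almost fully. The log2 fold change was -0.13 with a 95% interval from -0.49 to 0.23 (adjusted p = 0.553, edgeR), an interval of the fold from 0.713 to 1.18. Fibroblasts and pericytes are known to express *Igf2*, and the 10 fibroblast markers summed to between 31587 and 41001 normalized counts in mutant and between 27889 and 36837 in wild-type libraries. The 10 pericyte markers summed to 22724, 26960, 35893 and 22726 in mutant libraries 1 to 4 and to 25692, 35976, 35517 and 19791 in wild-type libraries 1 to 4. The libraries highest in this sum, mutant 3 and wild-type 2 and 3, were also the highest for *Igf2*, and the part of these cells in the *Igf2* value was not tested. Of the *Igf2* exon bases, 1.71% also belong to the antisense gene *Igf2os*. The labels name the NEBNext Ultra II RNA kit, whose standard form does not mark strand, and reads of the overlapping bases cannot be assigned to either gene if strand was not used in counting. Per length, *Igf2* exceeded *Igf1* by 59.1 to 208 times in wild-type and by 13.7 to 26.4 times in mutant libraries.

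*Igf1r* (ENSMUSG00000005533), the signalling receptor, lies on chromosome 7 from 67952827 to 68233668. The wild-type libraries were close together at 18116, 17954, 17927 and 19218 normalized counts, and the mutant libraries had 10192, 12188, 11539 and 7437. Every mutant library was below every wild-type library, and mutant library 4 was the lowest. The log2 fold change was -0.82 ± 0.13 (SE, adjusted p = 7.29e-04, edgeR), with a 95% interval from -1.12 to -0.53. The spread between pups was 3.36% of the mean in wild-type and 20.4% in mutant libraries.

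*Igf2r* (ENSMUSG00000023830), on the minus strand of chromosome 17 from 12682406 to 12769664, moved the other way. Mutant libraries had 8466, 6333, 6450 and 7360 normalized counts and wild-type libraries 4605, 4789, 4383 and 5012, without overlap. Its log2 fold change was 0.61 ± 0.10 (SE, adjusted p = 7.26e-04, edgeR). *Airn*, the noncoding RNA transcribed against *Igf2r* within the same imprinted region, had a log2 fold change of 0.63 ± 0.14 (SE, adjusted p = 0.00390, edgeR). Mutant libraries averaged 225 ± 7.68 *Airn* counts (SD, n = 4), against 145 ± 21.2 (SD, n = 4) for wild type. *Airn* shares no exon base with *Igf2r* as counted, but overlap with *Igf2r* introns was not examined. If strand was not used in counting, reads from *Igf2r* introns could be counted as *Airn*. Whether the *Airn* value is separate from that of *Igf2r* was therefore not tested.

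**Figure D2:**
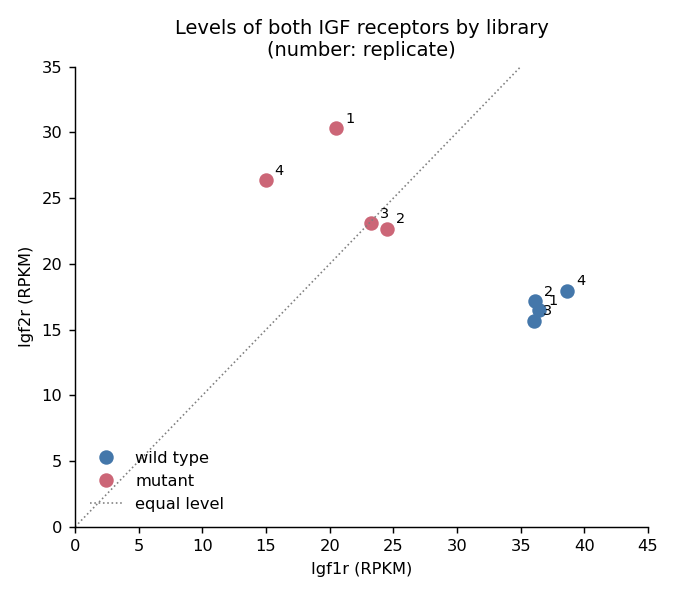
Levels of *Igf1r* and *Igf2r* in RPKM, with a point per library numbered by replicate and a dotted line of equal level. Wild-type points sit at 2.11 to 2.30 times more *Igf1r* than *Igf2r*, and mutant points at ratios from 0.568 to 1.08.

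Per length, *Igf1r* was at 36.8 ± 1.24 RPKM (SD, n = 4) and *Igf2r* at 16.8 ± 0.958 (SD, n = 4) in wild-type ECs. In mutant ECs they were at 20.8 ± 4.24 (SD, n = 4) and 25.6 ± 3.54 (SD, n = 4), and their ranges overlapped. The ratio of *Igf1r* to *Igf2r* was 2.21, 2.11, 2.30 and 2.16 in the wild-type libraries and 0.677, 1.08, 1.01 and 0.568 in the mutant libraries. The exon length of *Igf1r* in the files, 16791 bases, counts every annotated exon, so the ratio itself depends on that length while its order between libraries does not. The insulin receptor gene *Insr*, the closest relative of *Igf1r*, had 9638 ± 1695 (SD, n = 4) mutant and 11103 ± 416 (SD, n = 4) wild-type counts, a log2 fold change of -0.20 (95% interval -0.46 to 0.05, adjusted p = 0.169, edgeR). Without mutant replicate 1, *Insr* passed at -0.29 (adjusted p = 0.0357, edgeR).

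*Igfbp3* (ENSMUSG00000020427), on the minus strand of chromosome 11 from 7206086 to 7213923, encodes the main IGF carrier of blood. Wild-type libraries had 5508, 5428, 4992 and 6410 normalized counts, and mutant libraries 125323, 75708, 56208 and 79434. The lowest mutant library was 8.77 times the highest wild-type library, and mutant library 1 stood highest. This was a log2 fold change of 3.91 ± 0.23 (SE, adjusted p = 1.71e-06, edgeR), a fold with a 95% interval from 10.6 to 21.4.

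*Igfbp5* (ENSMUSG00000026185), on the minus strand of chromosome 1 from 72857932 to 72874884, encodes a carrier that also binds extracellular matrix. It had 7697, 3206, 2561 and 4604 normalized counts in mutant libraries 1 to 4 and 325, 363, 558 and 381 in the wild-type libraries. Every mutant library was at least 4.59 times the highest wild-type library. On the log2 scale the change was 3.47 ± 0.34 (SE, adjusted p = 3.54e-05, edgeR), with a fold between 6.61 and 18.6 at 95%. Mutant library 1 was highest and mutant library 3 lowest for both *Igfbp3* and *Igfbp5*, with libraries 4 and 2 between them in that order. *Map2k1* in the mutant libraries 1 to 4 stood at 18687, 12660, 12675 and 14306 normalized counts, also with libraries 1 and 4 highest, and 4 libraries are too few to test a relation.

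The start regions of the strongest risers are shown beside that of *Igf1r*, which fell, so that the bases before genes of opposite change can be compared. Each run is the 250 bases before the RefSeq start in GRCm38.p6, written in the direction of the gene, and capitals mark CG dinucleotides. They lie at chr11:7213924-7214173 on the minus strand, chr1:72874866-72875115 on the minus strand and chr7:67952007-67952256 on the plus strand. The windows differ in their place beside the counted genes. That of *Igfbp3* adjoins the counted gene, at 7213923, and that of *Igfbp5* overlaps its gene, which reaches 72874884. That of *Igf1r* ends well before the counted gene begins at 67952827.
Igfbp3: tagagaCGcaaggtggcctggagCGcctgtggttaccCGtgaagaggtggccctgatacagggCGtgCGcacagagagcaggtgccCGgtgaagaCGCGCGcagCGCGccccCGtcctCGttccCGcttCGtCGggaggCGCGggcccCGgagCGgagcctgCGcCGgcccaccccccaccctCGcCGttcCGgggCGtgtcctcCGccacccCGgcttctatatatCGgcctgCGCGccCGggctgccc
Igfbp5: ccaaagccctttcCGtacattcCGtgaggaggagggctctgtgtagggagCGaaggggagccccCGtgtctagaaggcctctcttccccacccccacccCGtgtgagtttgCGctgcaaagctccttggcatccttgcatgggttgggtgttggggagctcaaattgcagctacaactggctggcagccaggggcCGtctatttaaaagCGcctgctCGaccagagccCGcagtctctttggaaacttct
Igf1r: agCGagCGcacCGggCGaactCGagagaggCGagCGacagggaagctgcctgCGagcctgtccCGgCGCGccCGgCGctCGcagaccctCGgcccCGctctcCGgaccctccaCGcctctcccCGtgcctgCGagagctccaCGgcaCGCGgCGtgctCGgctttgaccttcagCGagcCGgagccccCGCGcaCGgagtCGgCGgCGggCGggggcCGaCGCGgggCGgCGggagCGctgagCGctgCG

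*Igfbp3* had 32 CG dinucleotides in this window, *Igfbp5* 10 and *Igf1r* 42, where the median over 32851 such windows of mouse genes was 6. Among the other genes that rose, *Igf2r* had 27, *Igfbp4* 22 and *Igf1* 5. On either strand, the AP-1 motif TGACTCA was found in 1 of the 14 windows of the 10 genes, at the second start of *Igfbp2*, and in 4.46% of all windows. The ETS motif CCGGAAGT occurred in 0 of 14 and in 2.88% of all, the cyclic AMP response element TGACGTCA in 0 of 14 and in 1.55% of all, the TATA box TATAAA in 2 of 14 and in 12.4% of all, and the GC box GGGCGG in 6 of 14 and in 32.7% of all. None of these letters stood in the windows of *Igfbp3* and *Igfbp5*, and the GC box stood in that of *Igf1r*. Only the exact letters were searched. Near matches of the TATA box, such as tatata in the *Igfbp3* window and tttaaa in the *Igfbp5* window, were not counted.

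*Igfbp4* (ENSMUSG00000017493), on chromosome 11 from 99041244 to 99054392, encodes a carrier that mostly restrains IGF action until a protease cuts it. Mutant libraries had 24678, 18754, 16169 and 18296 normalized counts and wild-type libraries 15545, 15450, 12767 and 14344. The groups stood apart by only 1.04 times, between mutant library 3 and wild-type library 1. The log2 fold change was 0.42 ± 0.13 (SE, adjusted p = 0.0200, edgeR), and without wild type replicate 3 it was 0.37 and no longer passed (adjusted p = 0.0537, edgeR).

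*Igfbp2* (ENSMUSG00000039323), on chromosome 1 from 72824503 to 72852474 and next to *Igfbp5*, encodes a carrier of the fetal and neonatal brain. It had 166, 195, 357 and 176 normalized counts in mutant libraries and 408, 502, 1026 and 298 in wild-type libraries. Mutant library 3 reached above wild-type library 4, so the groups overlapped. Its log2 fold change was -1.32 ± 0.38 (SE, adjusted p = 0.0160, edgeR). It shrank to -0.85 without wild type replicate 3 (adjusted p = 0.0319, edgeR), was -1.64 without mutant replicate 3, and at -1.18 did not pass without mutant replicate 1 (adjusted p = 0.0503, edgeR).

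Choroid plexus is a known site of *Igfbp2* expression. Its 8 markers summed to 4249, 3336, 7302 and 3717 normalized counts in mutant libraries 1 to 4 and to 5685, 6647, 18399 and 3214 in wild-type libraries 1 to 4. Library 3 was the highest of its group for the marker sum and for *Igfbp2*, in both groups. Of the 7 markers tested, 2 were lower and 1 was higher in mutant libraries, and none was at 0 in every library. The astrocyte list, for a further known source, had 1 of 10 markers higher and 2 lower, and its sum, mostly *Gja1*, lay between 19090 and 22523 in mutant and between 11586 and 13735 in wild-type libraries. What part these cells had in the *Igfbp2* value was not tested.

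**Figure D3:**
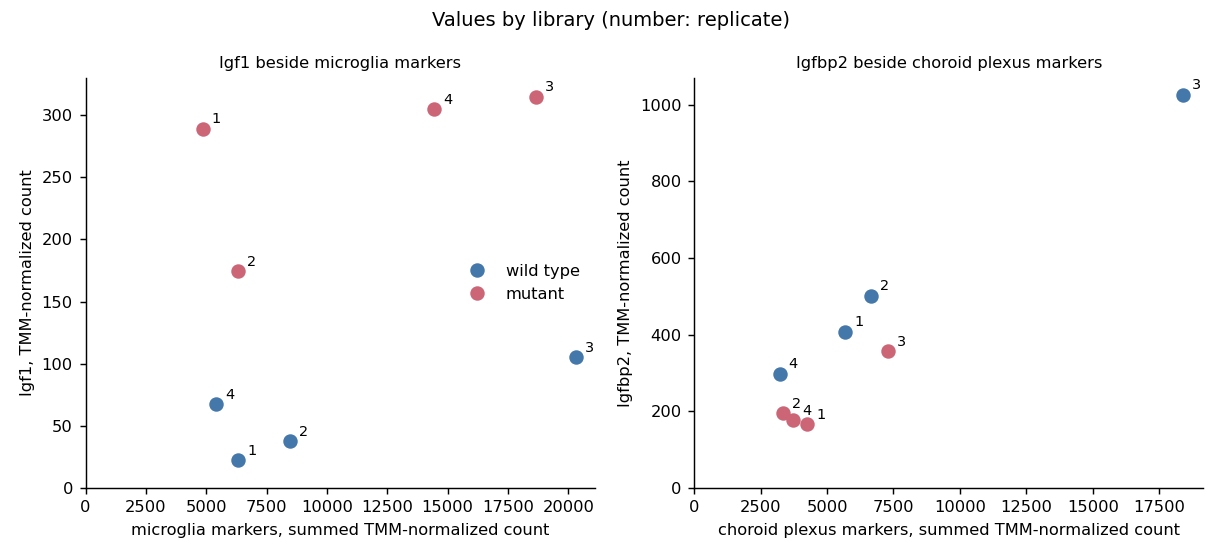
Left, *Igf1* against the summed microglia markers, and right, *Igfbp2* against the summed choroid plexus markers, in TMM-normalized counts with a point per library numbered by replicate. For *Igf1* the mutant points lie above the wild-type points while the microglia marker sums of the groups overlap. Library 3 is the highest of the wild-type points on both axes of both panels. The border macrophage sums, not drawn, lay between 714 and 1811 in mutant and between 258 and 1739 in wild-type libraries. None of the 6 border macrophage markers passed, and their median log2 fold change was 0.80.

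*Igfbp7* (ENSMUSG00000036256), on the minus strand of chromosome 5 from 77349240 to 77408041, was the leading binding protein of wild-type ECs and had overlapping libraries in the groups. Mutant libraries had 21776, 19142, 19174 and 18443 normalized counts and wild-type libraries 21055, 20997, 18294 and 21809. The log2 fold change was -0.07 with a 95% interval from -0.25 to 0.12 (adjusted p = 0.556, edgeR). *Cd93*, an endothelial surface protein that binds IGFBP7, had a log2 fold change of 0.47 ± 0.10 (SE, adjusted p = 0.00448, edgeR), with 68405 ± 8593 (SD, n = 4) mutant and 49337 ± 3871 (SD, n = 4) wild-type counts. Of the *Igfbp7* exon bases, 7.03% overlap *Polr2b* on the other strand.

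*Igfbp6* (ENSMUSG00000023046), on chromosome 15 from 102144362 to 102149511, encodes a carrier that prefers IGF2 and was barely detected. Mutant libraries had 44.2, 33.1, 47.5 and 44.3 normalized counts and wild-type libraries 17.5, 29.1, 49.2 and 57.9, from 19 to 57 reads. The log2 fold change was 0.14 with a 95% interval from -0.62 to 0.91 (adjusted p = 0.761, edgeR), so changes within that interval were not resolved. The spread between pups was 48.0% of the mean in wild-type and 14.9% in mutant libraries.

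The order of the 6 binding proteins by level per length differed between the groups. In wild-type ECs it ran *Igfbp7* at 574 ± 43.1 RPKM (SD, n = 4), *Igfbp4* at 111 ± 9.89, *Igfbp3* at 60.3 ± 6.43, *Igfbp2* at 10.2 ± 5.90, *Igfbp5* at 2.29 ± 0.582 and *Igfbp6* at 1.17 ± 0.560, and no neighbours in this order had overlapping ranges. In mutant ECs *Igfbp3* came first at 908 ± 316 RPKM (SD, n = 4), *Igfbp7* followed at 549 ± 41.0 and *Igfbp4* at 149 ± 27.9, then *Igfbp5* at 25.4 ± 12.9, *Igfbp2* at 4.09 ± 1.64 and *Igfbp6* at 1.28 ± 0.192. The ranges of *Igfbp3* and *Igfbp7* overlapped across the mutant libraries, but within each of them *Igfbp3* was the higher, by 2.22, 1.53, 1.13 and 1.66 times.

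Seen as shares of the summed RPKM of the 6 binding proteins, *Igfbp3* made up 61.6%, 53.8%, 47.1% and 55.6% in mutant libraries 1 to 4 and 7.66%, 7.55%, 7.85% and 8.67% in wild-type libraries 1 to 4. *Igfbp7* made up 27.7% to 41.6% in mutant and 74.5% to 76.4% in wild-type libraries. The sum itself lay between 1288 and 2197 RPKM in mutant and between 686 and 798 in wild-type libraries. The share of *Igfbp7* was therefore lower in every mutant library although its own RPKM ranges overlapped.

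**Figure D4:**
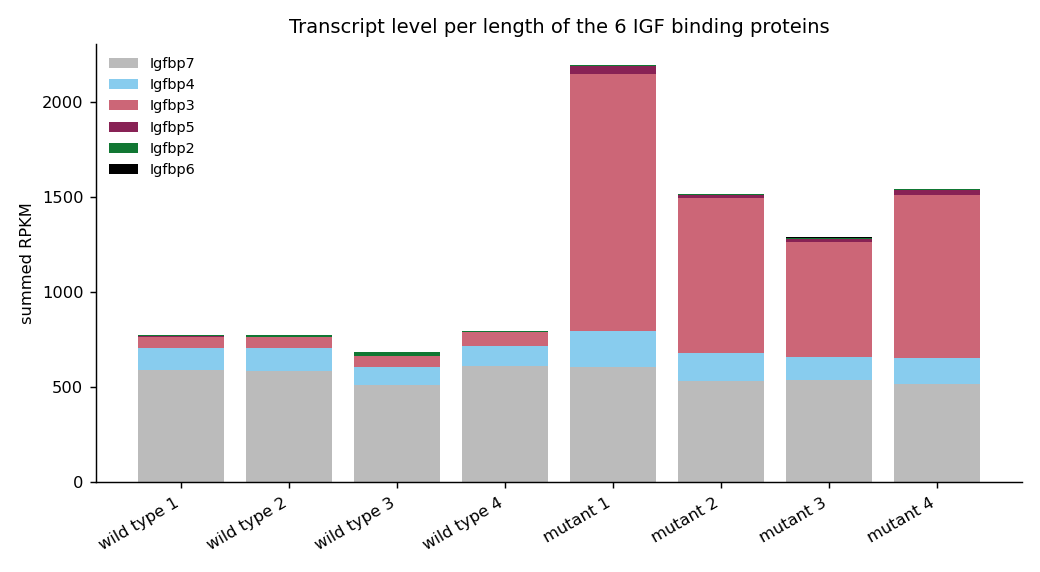
Stacked levels of the 6 binding proteins in RPKM, with a bar per library. The *Igfbp7* part stays between 511 and 609 RPKM in all 8 libraries, and the *Igfbp3* part grows from at most 69.2 in wild-type to at least 607 in mutant libraries.

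Across all 10 genes the wild-type order by RPKM was *Igfbp7*, *Igfbp4*, *Igfbp3*, *Igf1r*, *Igf2*, *Igf2r*, *Igfbp2*, *Igfbp5*, *Igfbp6* and *Igf1*, where the ranges of *Igf2* and *Igf2r* and of *Igf2r* and *Igfbp2* overlapped. The mutant order was *Igfbp3*, *Igfbp7*, *Igfbp4*, *Igf2r*, *Igfbp5*, *Igf1r*, *Igf2*, *Igfbp2*, *Igfbp6* and *Igf1*. There, the ranges of neighbours overlapped from *Igf2r* through *Igfbp5* and *Igf1r* to *Igf2*, as did those of *Igfbp3* with *Igfbp7* and *Igfbp6* with *Igf1*.

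Genes that carry, release or cut IGFs outside the cell formed a list of 13, of which 11 were tested, 5 rose and 4 fell, against 21.5% and 22.9% of all genes tested. *Igfbp1*, a binding protein induced in liver by fasting, rose from 15.3 ± 3.31 (SD, n = 4) to 87.6 ± 14.4 (SD, n = 4) normalized counts, a log2 fold change of 2.51 ± 0.24 (SE, adjusted p = 3.17e-05, edgeR). *Stc1* and *Stc2* encode stanniocalcins, which inhibit the pappalysin proteases that cut IGFBP4 and IGFBP5. *Stc1* was 3.77-fold higher, at 7997 ± 1890 (SD, n = 4) mutant and 2121 ± 708 (SD, n = 4) wild-type counts (adjusted p = 1.37e-04, edgeR). *Stc2* was 3.08-fold higher, at 219 ± 35.4 (SD, n = 4) and 70.7 ± 11.1 (SD, n = 4) counts (adjusted p = 6.69e-05, edgeR). The pappalysin gene *Pappa* had 3 to 14 reads per library and was not tested, while *Pappa2* passed narrowly from few reads (log2 fold change 0.89 ± 0.33 SE, adjusted p = 0.0463, edgeR). *Igfals*, for the acid-labile subunit that joins IGFBP3 or IGFBP5 in blood, had at most 5 reads and was not tested either.

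*Htra1* encodes a secreted serine protease that can cut IGFBP5. It fell to 24.0% of wild type, with 1359, 2476, 2568 and 1730 normalized counts in mutant libraries and 9327, 8717, 6062 and 9781 in wild-type libraries (log2 fold change -2.06 ± 0.21 SE, adjusted p = 5.44e-05, edgeR). *Igfbpl1*, a relative of the binding proteins, fell from 182 ± 177 (SD, n = 4) to 17.5 ± 21.2 (SD, n = 4) counts (log2 fold change -3.29 ± 0.88 SE, adjusted p = 0.0119, edgeR). Its spread was near its mean in both groups, and the log2 fold change was -4.55 without mutant replicate 4 and -2.42 without wild type replicate 3. The neuron marker sum lay between 726 and 1024 in mutant and between 1403 and 3168 in wild-type libraries, and its part in the *Igfbpl1* value was not tested.

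**Figure D5:**
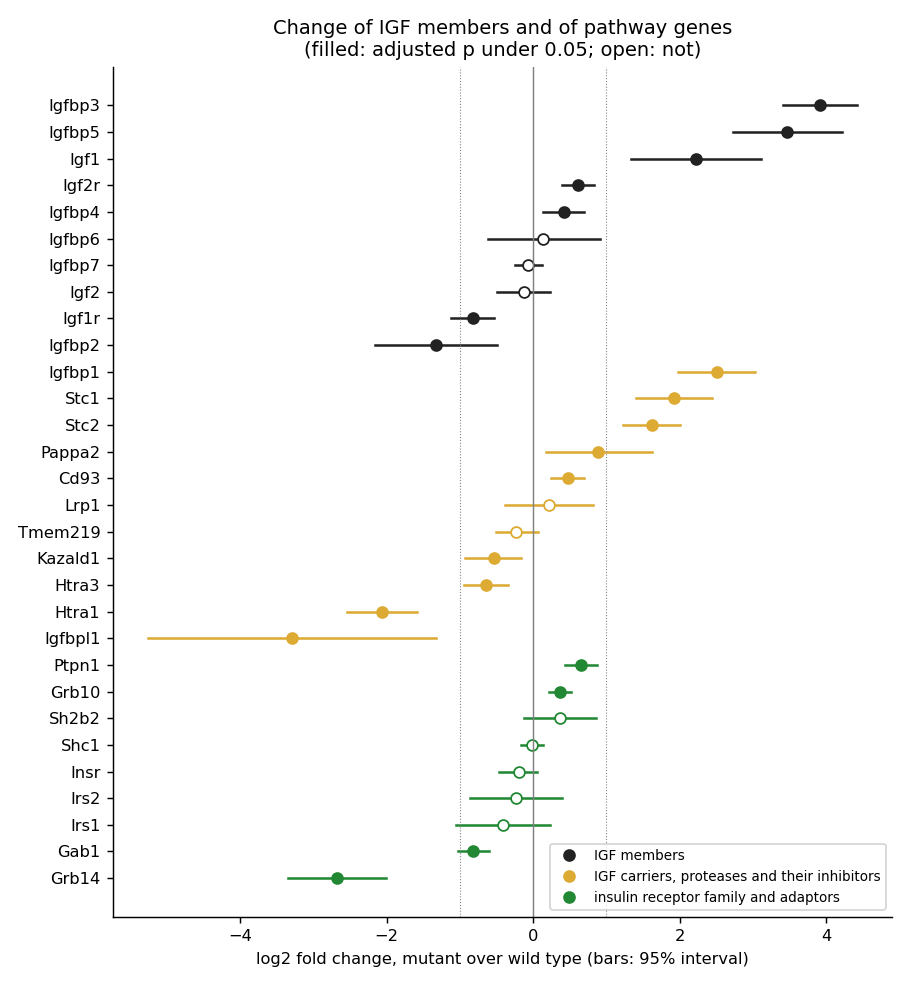
Log2 fold changes with 95% intervals for the 10 IGF genes (black), the extracellular carriers, proteases and their inhibitors (yellow) and the insulin receptor family with its adaptors (green), with filled points for an adjusted p under 0.05 and dotted lines at a log2 fold change of 1 and -1. *Igfbp3* is at the top with 3.91, and *Igfbpl1* is the lowest with -3.29 and the widest interval.

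Inside the cell, the insulin receptor family and its adaptors gave 9 tested genes of 11, with 2 higher, 2 lower and 5 that did not pass, near the 44.4% that passed over all genes. *Ptpn1*, a phosphatase of the insulin receptor, and the adaptor gene *Grb10* were higher, at log2 fold changes of 0.65 and 0.37, and the docking protein gene *Gab1* was lower at -0.82. *Grb14*, an adaptor that binds the active insulin receptor and inhibits it, had the only change of over 1 on the log2 scale. Its mutant libraries had 134, 233, 305 and 91.2 normalized counts and its wild-type libraries 1313, 1305, 1096 and 1156, a log2 fold change of -2.68 ± 0.30 (SE, adjusted p = 8.71e-05, edgeR). The scaffold genes of IGF1R signalling *Irs1* and *Irs2* were among the 5 that did not pass, at log2 fold changes of -0.41 (95% interval -1.05 to 0.23) and -0.23 (95% interval -0.86 to 0.39).

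*Igf2* and *Igf2r* are imprinted, and of 9 other imprinted growth genes 7 rose and 1 fell, against 21.5% and 22.9% of all genes tested. *Cdkn1c*, a growth restraining cell cycle inhibitor, was the one that fell (log2 fold change -0.65), and *Peg3* did not pass. *H19*, the noncoding RNA that shares enhancers with *Igf2*, was 2.93-fold higher, with 1500 ± 482 (SD, n = 4) mutant and 512 ± 66.4 (SD, n = 4) wild-type counts (adjusted p = 1.89e-04, edgeR), beside the log2 fold change of -0.13 for *Igf2*. The largest change of the list was in *Mest*, from 954 ± 75.8 (SD, n = 4) to 22098 ± 4703 (SD, n = 4) counts, a log2 fold change of 4.53 ± 0.16 (SE, adjusted p = 1.27e-07, edgeR).

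For the genes that passed, the likeness of other genes was measured as the root mean square difference in log2 CPM over the 8 libraries, after each gene was centred on its mean, among 11396 genes with at least 100 normalized counts on average. *Igfbp3* was most like *Egln3* (0.17), *Cd109* (0.18) and *Lpin3* (0.20), and *Igfbp5* most like *Glis3* (0.16), *Wipf3* (0.20) and *Robo1* (0.23). The nearest genes to *Igf1* were *Gm14221* (0.30), *Plau* (0.32) and *Hcls1* (0.37), and those to *Igfbp2* were *Ntrk2* (0.21), *Kif21b* (0.24) and *Sptb* (0.25). *Igf1r* had *Grasp* (0.06), *Eml6* (0.08) and *Klhl23* (0.08), *Igf2r* had *Spg21*, *Ybx3* and *Dhx8* (0.06 each), and *Igfbp4* had *Armcx2*, *Ccdc88c* and *Sft2d2* (0.06 each).

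Sample descriptions carry 3 prefixes, each with libraries of both groups, whose meaning is not given in the sources used here. Within the prefix of replicates 1 and 2, that of replicate 3 and that of replicate 4, the log2 difference of *Igfbp3* was 4.15, 3.49 and 3.63 and that of *Igfbp5* 3.85, 2.19 and 3.59. For *Igf1* it was 2.88, 1.56 and 2.15, and for *Igf1r* -0.69, -0.64 and -1.37. *Igf2r* (0.64, 0.56 and 0.55), *Igfbp4* (0.47, 0.34 and 0.35) and *Igfbp2* (-1.32, -1.52 and -0.75) also kept 1 sign, so each of the 7 genes that passed had the same direction in every prefix. The 3 genes that did not pass changed sign between prefixes.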

How the data were processed

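Poly(A) RNA of CD31-selected brain cells was sequenced from 4 mutant and 4 wild-type pups. The authors trimmed reads with Trimmomatic, aligned them to GRCm38 with STAR and deposited whole-number counts for 49315 genes per library. The counting program, annotation release and strand setting are not given in the sources used here. They also deposited a normalized signal for 16889 genes, each library's counts divided by 1 DESeq2 factor, and 100% of its values gave back the counts within 0.01 reads. Symbols came from GENCODE vM21 for 48970 genes, and upstream windows from RefSeq (GRCm38.p6), which held all 10 genes.

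Tests ran in edgeR 4.0.16 under R 4.3.3 (filterByExpr, minimum count 10, TMM, glmQLFit and glmQLFTest, no covariate). They were fitted over all 16887 genes that passed the filter and adjusted by Benjamini-Hochberg, with a standard error from the fold change and F statistic. Alternatives used DESeq2 1.42.0 and limma 3.58.1 (log2 of the deposited signal plus 1), other scalings and filters, blocks, and each library left out. The p-values set the difference between groups against the spread between 4 pups a group, estimated in part across genes, at 24833373 to 34196955 counts per library. With no block, that spread includes any difference between litters. In simulated data on 16624 genes, only 200 were changed, whereas 44.4% of genes passed between mutant and wild type. In that simulation, 31 of 67 genes changed 1.5-fold, 59 of 67 changed 2-fold and 66 of 66 changed 4-fold were called, with 11 unchanged genes. The Benjamini-Hochberg limit depends on the share of changed genes, so these rates do not give the detection rates of the real comparison. They were not split by level. The 200 changed genes were drawn only from genes averaging 100 or more normalized counts. No rate is therefore known for genes with few reads such as *Igfbp6*.

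The genes and lists were chosen with earlier results of these data known. All 10 IGF genes are named, with the genes of the carrier and insulin receptor lists past an adjusted p of 0.05 and a log2 fold change of 1, up to 4 genes of highest mean from other lists, and the 3 genes of likest pattern for each gene that passed. *Insr*, *Cd93*, *Irs1*, *Irs2*, *Pappa*, *Pappa2*, *Igfals*, *Ptpn1*, *Grb10*, *Gab1*, *Cdkn1c*, *Peg3*, *H19* and *Airn* were chosen after their values were seen.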

Additional observations from a re-analysis of the deposited data

Results flagged for a closer look

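In 3 of 42 groups of 4 libraries examined, the highest or lowest library stood far from the other three, beyond Dixon's 95% limit for the gap to the nearest library over the range of the group, which is given in parentheses. Chance gives about 1 in 20. Wild-type library 4 had 19218 normalized counts of *Igf1r*, above the other wild-type libraries (0.853). Mutant library 3 had 357.0 counts of *Igfbp2* (0.845), and its choroid plexus marker sum of 7302 was also the highest of the mutant libraries. Mutant library 4 had 10802 counts of *Stc1* (0.832).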

How the results depend on the processing

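Of 169 refits of the 10 IGF genes under 17 alternatives, 166 kept their direction and side of the threshold. *Igfbp2* (without mutant replicate 1) and *Igfbp4* (without wild type replicate 3) missed the threshold, and *Igfbp6* turned to -0.08 without wild type replicate 1, within a range of -0.08 to 0.40 as each library was left out. Below 100 normalized counts on average *Igfbp6* was not tested. The number of IGF genes that passed was 7 under all 9 other alternatives and between 6 and 7 with each library left out, those falling between 1 and 2, those rising between 4 and 5, and those also past a log2 fold change of 1 between 3 and 4. Over all genes, 2356 were past both limits, and 1194 where a mean of 100 counts was required, a filter that tests fewer genes. With the replicate number as a block, 8162 genes passed in place of 7504, and with the description prefix as a block 8610 passed. Under each block 7 IGF genes passed. With the prefix block the adjusted p of *Igfbp2* was 1.67e-04 and that of *Igfbp4* 0.00429 (edgeR), against 0.0160 and 0.0200 without a block. Same-numbered pups did not all deviate together (correlations of 0.293, 0.215, 0.334 and 0.000 over genes), so the numbers were not taken as pairs. Not every pup correlated best with its own number. Mutant 2 and wild type 1 share a prefix and had 0.426, while mutant 4 and wild type 3 share none and had 0.463. The paper matched controls to mutants within litters, and the main fit holds no term for litter. The median log2 fold change of all genes moved from -0.02 to -0.09 with upper quartile scaling, the lowest of the alternatives run. The fewest reads were behind *Igfbp6*, with 19 to 57 per library, and *Igf1*, with 24 to 351, and counting error was not separated from the spread between pups.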
